A study of Mus musculus with 2 samples.

Results

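TBX5 occupancy was examined at 5 genes linked to cardiac stress and remodelling: Nppa, Nppb, Ankrd1, Rcan1 and Hdac4. The peaks were those of the merged TBX5 list whose summit lay in 1 of 4 fixed windows of the mouse build mm9. The windows ran from 147.3 to 147.45 Mb on chromosome 4 for the adjoining Nppa and Nppb, from 36.13 to 36.25 Mb on chromosome 19 for Ankrd1, from 92.38 to 92.5 Mb on chromosome 16 for Rcan1, and from 93.78 to 94.35 Mb on chromosome 1 for Hdac4 with its upstream flank. They held 29 of the 8849 TBX5 peaks: 4 in the Nppa and Nppb window, 7 in the Ankrd1 window, 2 in the Rcan1 window and 16 in the Hdac4 window. The windows carry the names of the genes they were drawn for. No mm9 annotation was used here, so it was not checked that the windows hold these genes. Whether a peak lies in a promoter, an intron or a gene next to it was not determined. Where a peak or value is given at a gene, it is that of the window of its name.

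The chromatin came from cardiac ventricles of untreated wild type C57BL/6 mice aged 15 weeks, was fixed with 2% formaldehyde, and was precipitated either with anti-TBX5 (HPA008786, Sigma) or with a rabbit IgG from Millipore. By the design text there were 2 biological replicates of each precipitation. Values come from 1 merged TBX5 list, so no spread between replicates and no test stands behind any of them, and IgG values were not analysed here. Ventricle chromatin mixes cardiomyocytes with the other cells of the wall, and a peak list holds no expression value against which the tissue could be checked.

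TBX5 is a T-box transcription factor that patterns the forming heart and works with partners such as NKX2-5 and GATA4. Nppa and Nppb encode the precursors of atrial and B-type natriuretic peptide, hormones that lower blood volume and pressure, and both rise in the ventricle under load. Ankrd1 encodes a muscle ankyrin repeat protein of the sarcomere and nucleus that is induced by stretch. Rcan1 encodes an inhibitor of calcineurin, the phosphatase that drives NFAT signalling in hypertrophy, and an internal promoter of Rcan1 is itself induced by that pathway. Hdac4 encodes a class IIa histone deacetylase that binds MEF2 and represses its targets until kinase signalling moves it out of the nucleus.

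The bases under the peaks could not be read without a genome of the build. The promoters of the member genes are given in their place, as a picture of the factor motifs next to these genes, from RefSeq on build GRCm38.p6, with 250 bases before and 50 bases after the gene start. Their coordinates are of that build and cannot be set beside the mm9 positions of the peaks. All 5 genes had an entry, and Rcan1 had 2 starts, which made 6 promoters. The 4 that held a T-box motif or a match for a partner are shown 5′ to 3′ on the strand of the gene, with every match to a searched motif in capitals.
Nppa, chr4:148000472-148000771, plus strand: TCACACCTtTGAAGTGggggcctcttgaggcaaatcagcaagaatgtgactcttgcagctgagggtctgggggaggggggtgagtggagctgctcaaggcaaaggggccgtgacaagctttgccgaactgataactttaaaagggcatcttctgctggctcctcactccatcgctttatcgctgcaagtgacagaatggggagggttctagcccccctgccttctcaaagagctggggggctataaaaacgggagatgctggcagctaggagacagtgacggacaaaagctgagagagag
Nppb, chr4:147985650-147985949, plus strand: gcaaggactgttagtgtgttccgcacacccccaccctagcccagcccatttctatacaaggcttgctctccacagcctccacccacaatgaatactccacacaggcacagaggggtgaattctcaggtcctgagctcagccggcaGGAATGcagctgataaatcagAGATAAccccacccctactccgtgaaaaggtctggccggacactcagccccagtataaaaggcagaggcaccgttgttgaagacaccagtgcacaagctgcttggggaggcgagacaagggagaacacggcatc
Ankrd1, chr19:36119795-36120094, minus strand: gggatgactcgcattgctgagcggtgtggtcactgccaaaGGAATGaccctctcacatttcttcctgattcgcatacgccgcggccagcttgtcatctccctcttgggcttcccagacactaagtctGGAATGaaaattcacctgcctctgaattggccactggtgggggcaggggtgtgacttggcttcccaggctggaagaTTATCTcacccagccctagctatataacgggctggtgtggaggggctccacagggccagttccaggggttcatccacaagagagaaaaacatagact
Rcan1, downstream start, chr16:92400029-92400328, minus strand: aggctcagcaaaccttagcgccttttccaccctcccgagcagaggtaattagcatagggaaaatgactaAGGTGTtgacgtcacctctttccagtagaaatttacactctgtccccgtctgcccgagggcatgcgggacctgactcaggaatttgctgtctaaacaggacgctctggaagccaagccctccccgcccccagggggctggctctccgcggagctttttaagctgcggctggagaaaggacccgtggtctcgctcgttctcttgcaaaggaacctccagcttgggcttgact

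The motifs, searched on both strands, were a T-box site (AGGTGTGA), its core (AGGTGT, which lies within the first) and motifs of partner factors. The partner motifs were the letters AGATAA for the GATA factors, the letters CATTCC for the TEAD factors (called MCAT), the letters AAGTG preceded by T and any base for NKX2-5, and for MEF2 the letters CTA followed, after 4 open bases, by TAG. The Nppa promoter held the full T-box site, read on the opposite strand, in its first 8 bases. A match to the NKX2-5 motif began 9 bases further in, with 1 base between the matches. Such a pair of neighbouring sites is known from the rat Nppa promoter, where TBX5 and NKX2-5 act together. The full T-box site was present in 419 of the 32851 promoters in the RefSeq table (1.28%), and among the 6 member promoters it was found at Nppa only. The core was found at Nppa and at the downstream start of Rcan1, 181 bases before that start, and in 13.7% of all promoters. These are exact matches. With 1 mismatch allowed in the full site, Nppb and Ankrd1 held it as well as Nppa, against 23.2% of all promoters.

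The Nppb and Ankrd1 promoters held the searched GATA and MCAT letters and no exact match to either form of the T-box motif. For GATA only AGATAA was searched. The related letters TGATAA, which stand in the printed Nppa and Nppb promoters, were not counted. The GATA match began 84 bases before the start in Nppb and 47 bases before it in Ankrd1, and 11.2% of all promoters held one. MCAT matches began 105 bases before the start in Nppb, and 210 and 123 bases before it in Ankrd1, against 14.7% of all promoters with at least 1. The NKX2-5 letters were in 11.5% of all promoters and the MEF2 letters in 3.69%, the latter in none of the 6. The upstream Rcan1 start and the Hdac4 promoter had no match to any of the motifs. They were also the richest in G and C, at 67.7% and 68.0%, against 54.7% to 56.3% in the other 4 and a median of 52.7% over all promoters. These matches describe letters in a 300-base window and do not show where the factor was bound.

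**Figure D1:**
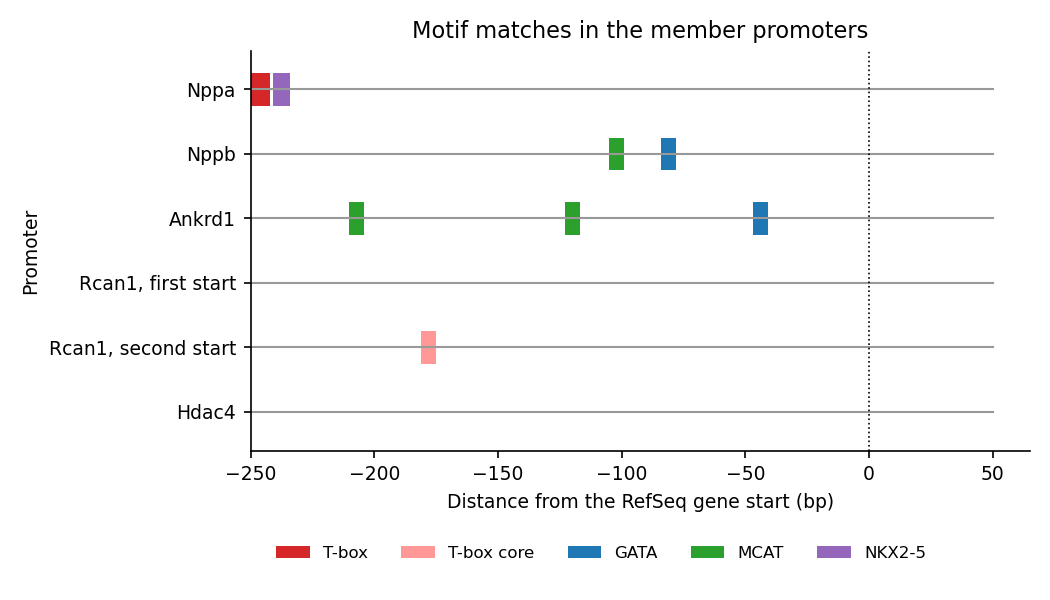
Positions of motif matches in the 6 promoters of the member genes, with the distance from the RefSeq gene start in bp on the horizontal axis and 1 line per promoter; coloured bars are matches of the named motif on either strand. The T-box and NKX2-5 matches of Nppa adjoin at the far end, the GATA and MCAT matches are in Nppb and Ankrd1, and the upstream Rcan1 start and Hdac4 have none. For GATA only the letters AGATAA were searched.

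Each TBX5 peak is described by the deposited fold, which sets the TBX5 pileup at the summit over the local control level, by the fragments behind that pileup and by the control level. Fragments and control level were recovered from the deposited fold and −log10 p. Brackets give exact 95% Poisson intervals on the fragments, and the intervals on folds follow from them with the control level held fixed. Both kinds of interval cover counting error alone and hold no spread between replicates. Without molecular identifiers, copies of a fragment could not be told apart, and the intervals make no allowance for them. In the whole list, each value taken by itself, the median fold was 5.52 and the median fragments 32. The median control level was 3.5 fragments per position and the median width 202 bp.

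The Hdac4 window held the highest-scoring of the 29 sites. The peak on chromosome 1 from 94240245 to 94240770 had 172 TBX5 fragments at its summit (147 to 200). The control level was 3.38 and the fold 31.2 (26.7 to 36.1). It was the 8th of all 8849 peaks by score. None of the other 15 peaks of that window reached a fold of 10. The next by fold, from 94092362 to 94092595 and 148 kb below the strongest summit, reached a fold of 9.50 (6.90 to 12.8) with 41 fragments (29.4 to 55.6). The strongest site thus stood alone in height, with an interval far above that of the next.

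TBX5 peaks were spread along the whole Hdac4 window, with 526 kb from the first summit to the last. On the lower side of the strongest site lay 12 peaks, with folds of 2.95 to 9.50 and 15 to 41 fragments. On the higher side lay 3 peaks, with folds of 4.16 to 8.12 and 40 to 63 fragments. By score the second of the window was the peak nearest its upper edge, from 94344799 to 94345161, where 63 fragments (48.4 to 80.6) stood over a control level of 6, which gave a fold of 7.22 (5.58 to 9.20). The third by score was the peak of fold 9.50 given above.

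The fourth by score, from 94255534 to 94255767, lay 15.2 kb above the strongest summit, with a fold of 8.12 from 40 fragments (28.6 to 54.5). The fifth, from 93996188 to 93996392, had a fold of 8.38 from 36 fragments (25.2 to 49.8). The sixth, from 93924846 to 93925046, had a fold of 7.52 from 31 fragments (21.1 to 44.0). These peaks overlapped each other in their fragment intervals, so their order among themselves is not settled.

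The seventh by score, from 94034182 to 94034355, had a fold of 5.76 from 28 fragments, and the eighth, from 93818797 to 93819269, a fold of 4.76 from 35. The remaining 8 peaks of the Hdac4 window had folds of 2.95 to 6.26, with 15 to 41 fragments over control levels of 1.18 to 7. The lowest of them, from 94109138 to 94109270, had 25 fragments over a control level of 6 and a −log10 q of 2.17, and 96.8% of the list scored at least as high. A group of 3 peaks ran from 93913044 to 93927428, with folds of 5.17 to 7.52, and it was the only group of more than 2 peaks in this window. Peaks count as grouped here when the gap between them is at most the stitching distance, which was set midway between 0 and 25 kb.

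**Figure D2:**
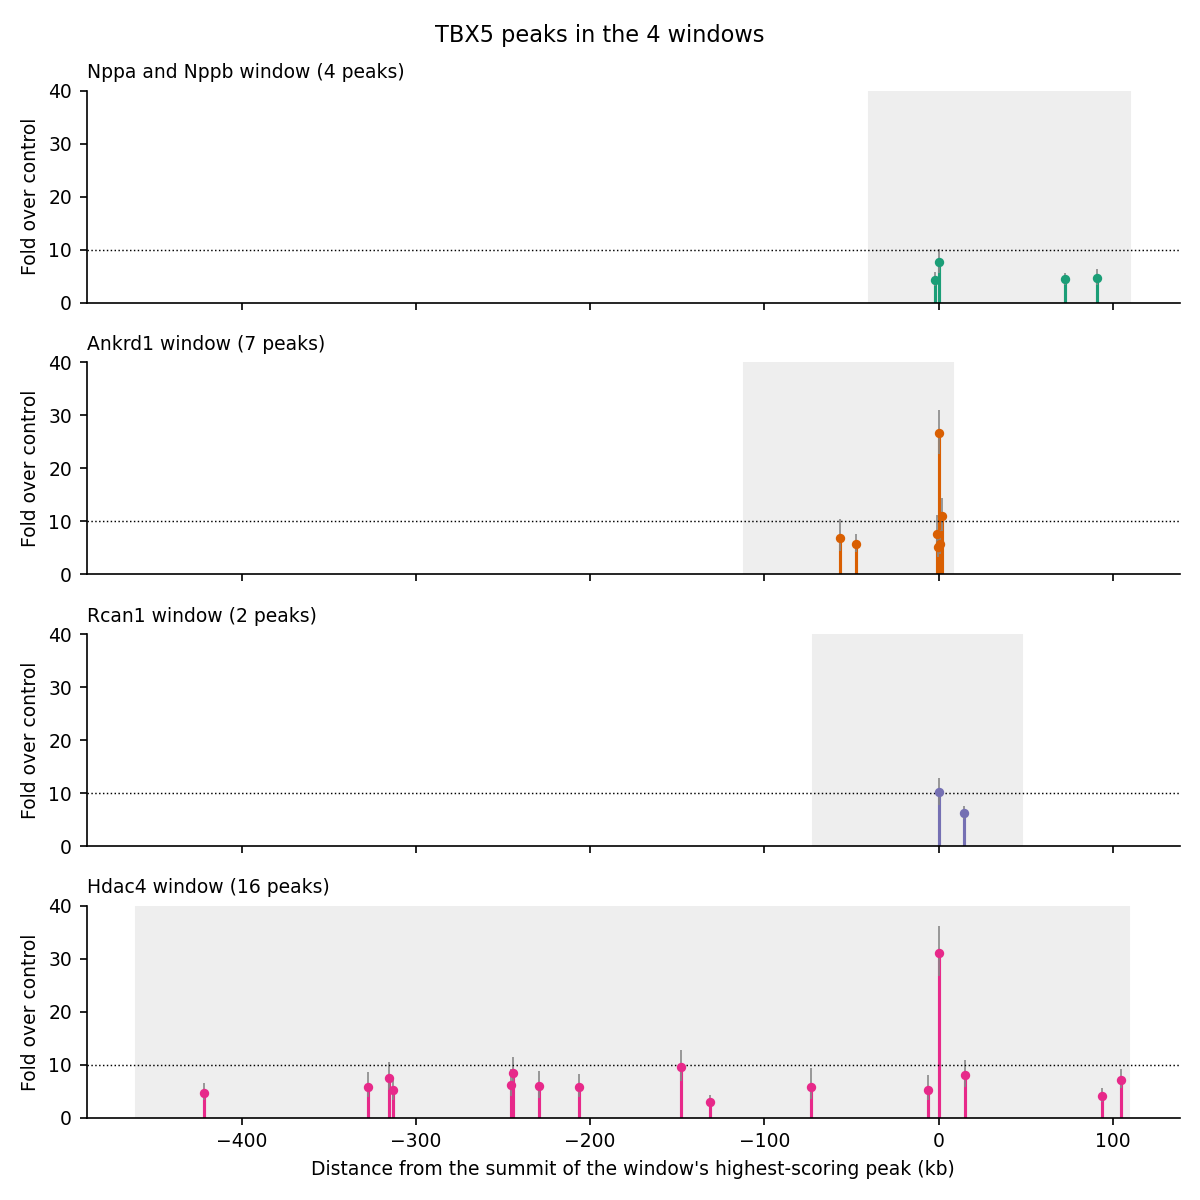
TBX5 peaks of the 4 windows, with the distance of each summit from the summit of the window's highest-scoring peak in kb on the horizontal axis and the deposited fold over the control level on the vertical axis; grey areas mark the windows, thin lines the 95% intervals from the fragment counts, and the dotted line a fold of 10. The Hdac4 and Ankrd1 windows each hold 1 peak above a fold of 25, while the peaks of the Nppa and Nppb window stay below 10.

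The Ankrd1 window held the second of the high sites, within a tight row of peaks. The peak on chromosome 19 from 36241631 to 36242372 had 164 fragments (140 to 191). The control level was 3.88 and the fold 26.7 (22.8 to 31.0). It was the 27th of the list by score and, at 742 bp, the widest of the 29. Its fold and fragment intervals overlapped those of the strongest Hdac4 site, so these sites could not be put in order.

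Next to it lay 4 further peaks, and the row of 5 spanned 2.92 kb from 36240974 to 36243898. The summits of neighbouring peaks were 442, 421, 784 and 1083 bp apart, and the called peaks covered 53.0% of the span. The peak at the upper end, from 36243679 to 36243898, reached a fold of 11.0 (8.23 to 14.3) with 51 fragments (38.0 to 67.1). The other 3 had 21 to 24 fragments and folds of 5.19 to 7.56, from 36240974 to 36241128 (7.56), from 36241422 to 36241577 (5.19) and from 36242610 to 36242887 (5.68). The central peak thus had over 3 times the fragments of any other peak in its row. Of the 54 groups of 5 or more peaks in the whole list, 1 spanned no more than 2925 bp, and that was this row. This count was made after the row had been seen. When peaks within 1 kb were merged, the whole row became a single peak and the Ankrd1 window held 3.

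The Ankrd1 window had 2 more peaks, 56.7 and 47.5 kb below the central summit. The first, from 36185091 to 36185290, had a fold of 6.94 from 20 fragments (12.2 to 30.9). The second, from 36194302 to 36194864, had a fold of 5.67, with a control level of 5 and 42 fragments (30.3 to 56.8). The second was 563 bp wide, which made it the second widest of the 29, but its fold was close to the median of the list. Both lay far below the central peak in fragments and fold.

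**Figure D3:**
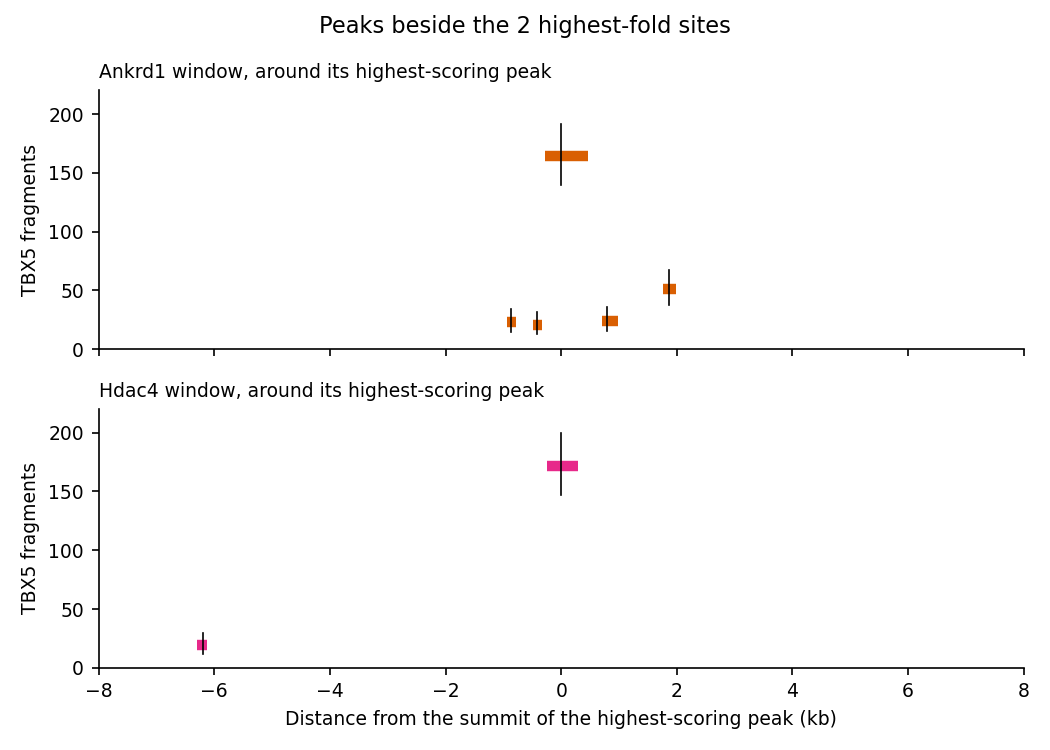
TBX5 peaks within 8 kb of the highest-scoring site of the Ankrd1 window (above) and of the Hdac4 window (below), with the distance from that summit in kb on the horizontal axis and the TBX5 fragments at each summit on the vertical axis; bars show the called extent of a peak and black lines the exact 95% Poisson interval. The Ankrd1 site has 4 neighbours within 2 kb, and the Hdac4 site has 1 neighbour, 6200 bp away.

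The strongest Hdac4 and Ankrd1 sites had overlapping fragment intervals and differed in the spacing of the peaks around them. The Hdac4 site had 172 fragments and the Ankrd1 site 164, over control levels of 3.38 and 3.88. The nearest summit was 6200 bp from the Hdac4 site, at a peak from 94234178 to 94234366 whose fold was 5.32 from 19 fragments (11.4 to 29.7). At the Ankrd1 site the nearest summit was 421 bp away. In the whole list, 167 peaks (1.89%) had a fold of 20 or more, and 71 of these (42.5%) had a neighbour within the stitching distance, as both of these sites did.

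The Rcan1 window held 2 peaks of nearly the same score on different backgrounds. The peak on chromosome 16 from 92452040 to 92452233 had 63 fragments (48.4 to 80.6). Its control level of 4 gave a fold of 10.1 (7.82 to 12.9). The peak from 92466522 to 92466857 had 94 fragments (76.0 to 115). Its control level of 11 gave a fold of 6.24 (5.06 to 7.62). Their scores were 317 and 308, and they ranked 970 and 1011 in the list. The second had more fragments and the lower fold. The fragment intervals overlapped and the fold intervals did not. That control level of 11 was the highest at any of the 29 peaks, and 5.31% of the list had a level at least as high. The summits were 14.6 kb apart, and neither peak had a neighbour within the stitching distance.

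The Nppa and Nppb window held 4 TBX5 peaks of moderate height, none of which reached a fold of 10. The peak on chromosome 4 from 147339955 to 147340220 had the highest score and fold, with 47 fragments (34.5 to 62.5) over a control level of 4 and a fold of 7.59 (5.63 to 10.03). Its neighbour from 147337705 to 147338163, with a summit 2.16 kb below, had a fold of 4.31 (3.20 to 5.67), with a control level of 8 and 48 fragments (35.4 to 63.6). Nearly equal fragment numbers thus stood over unequal control levels.

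Across 72.7 kb without a peak, the third lay from 147412698 to 147413034, where 57 fragments (43.2 to 73.9) over a control level of 9.5 gave a fold of 4.37 (3.33 to 5.63). The fourth, from 147430888 to 147431149, had a fold of 4.69 (3.38 to 6.36), with a control level of 5.75 and 39 fragments (27.7 to 53.3). All 4 had more fragments than the median of the list. All 4 also had a control level above the list median of 3.5, up to a level that 7.50% of the list reached. Their median fold was 4.53, below the 5.52 of the list. The fold is divided by the control level plus 1, so a higher level gives a lower fold for the same fragments, and its part in these folds was not tested. In the RefSeq order of genes, Nppb and Nppa are direct neighbours, with 2510039O18Rik next on one side and the chloride transporter gene Clcn6 on the other. No peak was assigned to any of them.

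**Figure D4:**
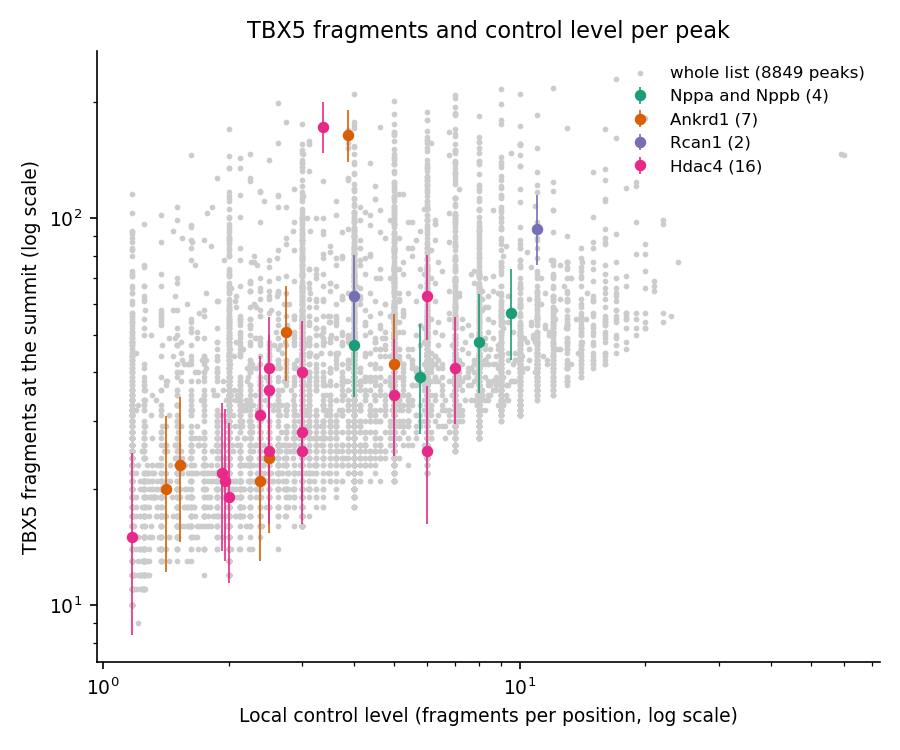
TBX5 fragments at the summit against the local control level, both on log scales, for all 8849 peaks (grey) and the 29 peaks of the 4 windows (coloured by window, with exact 95% Poisson intervals). The strongest Hdac4 and Ankrd1 sites lie near the top of the list at control levels under 4, and the Nppa and Nppb peaks lie at control levels of 4 to 9.5.

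Compared by locus, the highest fold was 31.2 in the Hdac4 window, 26.7 at Ankrd1, 10.1 at Rcan1 and 7.59 at Nppa and Nppb. The intervals of the first pair overlapped, and so did those of the last pair (7.82 to 12.9 and 5.63 to 10.03). The lower end at Ankrd1, 22.8, lay above the upper end at Rcan1, 12.9. A window with more peaks has more chances of a high one, and this was not corrected for. By median fold the order was another, 8.18 at Rcan1, 6.94 at Ankrd1, 5.91 at Hdac4 and 4.53 at Nppa and Nppb. The median fragments were 78.5 at Rcan1, 47.5 at Nppa and Nppb, 29.5 at Hdac4 and 24 at Ankrd1. The median control level was 7.5 at Rcan1, 6.88 at Nppa and Nppb, 2.75 at Hdac4 and 2.5 at Ankrd1. The Ankrd1 and Hdac4 windows, which held the highest single sites, thus had the lower medians of both fragments and control level. The medians were higher in the Rcan1 window (2 peaks) and the Nppa and Nppb window (4 peaks). This was not tested.

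Of the 29 peaks, 4 had a fold of at least 10 (13.8%, 95% Wilson interval 5.50 to 30.6), against 13.7% of the whole list. They were 2 of 7 at Ankrd1, 1 of 2 at Rcan1, 1 of 16 in the Hdac4 window and 0 of 4 at Nppa and Nppb. The share over all 4 windows was close to that of the list. The median fold was 5.91 for the 29 peaks and 5.52 for the list, the median fragments 36 and 32, the median control level 3 and 3.5, and the median width 221 and 202 bp. In score, 19 of the 29 (65.5%) were above the median of the list.

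The windows held more peaks for their length than the list as a whole, which had 0.337 peaks per 100 kb on chromosomes 1 to 19 and X. The Ankrd1 window had 5.83 peaks per 100 kb (95% Poisson interval 2.35 to 12.0), the Hdac4 window 2.81 (1.60 to 4.56), the Nppa and Nppb window 2.67 (0.727 to 6.83) and the Rcan1 window 1.67 (0.202 to 6.02). With peaks within 1 kb merged, the row of 5 counts once and the order turned, with 2.67 at Nppa and Nppb, 2.63 at Hdac4, 2.50 at Ankrd1 and 1.67 at Rcan1. Widened by 50 kb on both sides, the Ankrd1 window had a density of 3.18. The others then had 2.8 (Nppa and Nppb), 2.39 (Hdac4) and 1.82 (Rcan1). In the 4396 peaks above the median −log10 q of the list, the density was 3.33 at Ankrd1. It was 2.67 at Nppa and Nppb, 1.58 at Hdac4 and 1.67 at Rcan1. The intervals of all 4 windows overlapped, and that of Rcan1 included the level of the list. Among tiles of the same length laid along the chromosomes, 0.238% held as many peaks as the Ankrd1 window, 0.260% as many as the Hdac4 window, 2.78% as many as the Nppa and Nppb window and 9.30% as many as the Rcan1 window. The windows were drawn with the peak list known, and the tiles include assembly gaps and gene-poor regions, so these shares describe the windows and test nothing. Neighbouring peaks are not independent, which makes the intervals too narrow.

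**Figure D5:**
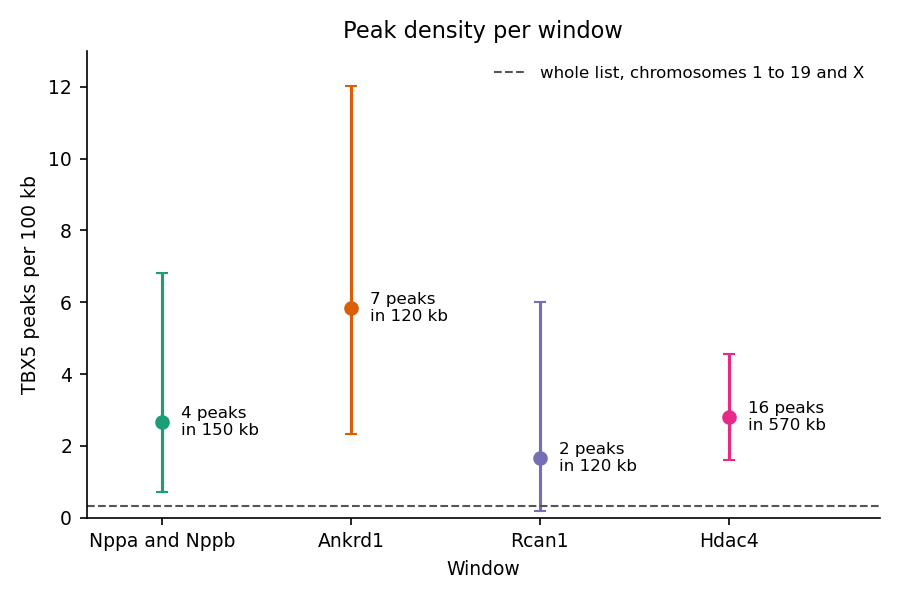
TBX5 peaks per 100 kb in each window, with exact 95% Poisson intervals as error bars and the density of the whole list on chromosomes 1 to 19 and X as a dashed line. The intervals of the 4 windows overlap. The Ankrd1 window stands highest with its row of 5 close peaks counted singly, and falls to 2.50 per 100 kb, below Nppa and Nppb (2.67) and Hdac4 (2.63), when peaks within 1 kb are merged.

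A neighbour within the stitching distance was found for 18 of the 29 peaks (62.1%), against 36.5% of the list. The windows were drawn on the same peak positions, windows with several peaks raise this share by construction, and 5 of the 18 are the Ankrd1 row, so nothing is read from the difference. They were all 7 at Ankrd1, 9 of 16 in the Hdac4 window, 2 of 4 at Nppa and Nppb and 0 of 2 at Rcan1. The share depended on the stitching distance, with 37.9% at 5 kb against 23.9% of the list, and 93.1% at 25 kb against 48.4%. The peaks nearest the window edges were these. The Ankrd1 row ended 6.22 kb inside its window edge by summit, and the next peak beyond that edge, from 36303937 to 36304121, was 54.0 kb outside it with 17 fragments and a fold of 6.46. At the upper edge of the Hdac4 window the last summit was 4.96 kb inside and the next, at a peak of fold 12.3 with 89 fragments, 245.8 kb outside. At the lower edge of the Rcan1 window the next summit was 8.13 kb outside, with 25 fragments and a fold of 7.51.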

How the data were processed

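Peaks are on build mm9, and the submitters' processing notes name MACS2 2.1.1.20160309.0, Bowtie2 2.2.6.2 and FastQC 0.10.0. How MACS2 was set, which control it used and how replicates were merged is not given in the sources used here. Deposited was a list in the layout of a MACS2 narrowPeak file. Its deposited score follows the −log10 q, its deposited fold is a ratio of pileup to local control level, and its −log10 p and −log10 q were deposited with them; the lowest −log10 q was 1.30. Coordinates are mm9, counted from 1.

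The control level and the TBX5 fragments were solved from fold = (scaled pileup + 1) / (control level + 1) and the Poisson tail of the pileup, with the pileup scaled by 0.787 and a lowest control level of 1.18 fragments per position. All 8849 peaks were solved within 0.00012 on −log10 p (tolerance 0.005), 187 with a second solution, and all 29 members with a single one. On simulated data, 100% of 3000 peaks came back right in each of 2 simulations. The simulated control levels followed the same model and steps that the solution required. They left out its finest steps, which some members had, such as the level of 1.4125 at an Ankrd1 peak. The simulations thus do not cover those peaks. Whole-number and 125 bp window steps were required of the control level.

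Members and lists were chosen with earlier results of these data known. The rule for named items was all peaks of the 3 smaller windows, and the 8 highest-scoring peaks and any group of 3 or more of the Hdac4 window. No peak number was missing inside a window. Computations used pandas 2.3.3, scipy 1.17.1 and numpy 2.4.6 in Python 3.11.15, and figures matplotlib 3.10.9.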

Additional observations from a re-analysis of the deposited data

How the results depend on the processing

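Of 65 alternatives, 47 stayed within 1.5 times a count or within the 95% interval of the main value, and 18 moved it. The Ankrd1 density has a wide interval, so its 2.50 (merged), 3.18 (widened) and 3.33 (above the median −log10 q) per 100 kb are among the 47 although they lie 1.5 times or more below 5.83. In the peaks above the median −log10 q of the list, the Ankrd1 window held 4 peaks, the Hdac4 window 9 (1.58 per 100 kb), and 36.8% of the members had a neighbour, against 24.6% of that part of the list. Merging within 1 kb left 3 peaks at Ankrd1. Widening each window by 50 kb on both sides gave 7 peaks at Nppa and Nppb and 4 at Rcan1. Ranked by fragments, the leading site had a fold of 4.37 at Nppa and Nppb and 6.24 at Rcan1. The neighbour share was 37.9% at 5 kb and 93.1% at 25 kb. With 1 mismatch allowed, 3 of the 6 promoters (Nppa, Nppb and Ankrd1) held the T-box site, against 23.2% of all promoters. The causes of these shifts were not tested.

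Chosen after seeing the data, narrowing each window by 10 kb on both sides left 2 peaks at Ankrd1 (2.0 per 100 kb, against 3.08 at Nppa and Nppb, 2.73 at Hdac4 and 2.0 at Rcan1), because the row of 5 lies near the edge. Without its strongest site, the next by score had a fold of 4.37 at Nppa and Nppb, 11.0 at Ankrd1, 6.24 at Rcan1 and 7.22 in the Hdac4 window. The median fold of the members stayed between 5.88 and 7.52 in all its alternatives.

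The list is merged, which left no replicate to leave out. No paired analysis was possible because the replicates of both antibodies are not analysed separately here. The list ends at a q of 0.05, and how many weaker sites a greater depth would add was not tested.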

Other observations

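Just outside the windows lay 5 further TBX5 peaks within 50 kb. Below the Nppa and Nppb window there were 3, from 147257264 to 147257485 (28 fragments, a fold of 7.67), from 147271641 to 147271829 (29 fragments, a fold of 4.76) and from 147274702 to 147275049 (40 fragments, a fold of 4.64). Below the Rcan1 window there were 2, from 92345605 to 92345825 (a fold of 3.87 from 43 fragments at a control level of 8) and from 92371782 to 92371977 (a fold of 7.51 from 25 fragments at a control level of 1.75). In the RefSeq order of genes, the next protein-coding gene on the lower side of Rcan1 is Kcne1, a potassium channel subunit gene, and on the other side Clic6. The Hdac4 gene lies between Twist2 and Ndufa10, and Ankrd1 between Rpp30 and Pcgf5. No peak was assigned to these genes. Below the Ankrd1 window the nearest summit was 1296.5 kb away, at a peak with 14 fragments and a fold of 5.52.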
